A study of Mus musculus with 5 samples.

Results

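The constitutive proteasome genes were followed across the immune cells of mouse tumours. They were taken by symbol, as every gene named Psma, Psmb, Psmc or Psmd with a number except the immunoproteasome genes Psmb8, Psmb9 and Psmb10, and were 36 of the 32285 genes listed. Of these, 8 code for subunits of the alpha ring, 8 for subunits of the beta ring, 6 for the ATPases of the base, 11 for other subunits of the regulatory particle, and 3 (Psmd5, Psmd9 and Psmd10) for chaperones that help to assemble the base. The rule reads gene symbols alone. The samples were 5 single-cell RNA libraries of live CD45+ cells sorted from flank tumours grown in mice from Lewis Lung Carcinoma (LLC) cells, a mouse lung cancer line. In 3 libraries the injected LLC cells carried a Scramble guide and in 2 a guide RNA against Jag2, the gene of a Notch ligand (JAG2KO). The guides were in the injected cells. The strain, age and number of mice per library, and whether the JAG2KO cells were a clone or a pool, are not given in the sources used here.

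The proteasome is the barrel-shaped protease that degrades ubiquitin-tagged proteins in the cytosol and nucleus. Its core particle stacks rings of alpha subunits, which form the gate, and beta subunits, of which Psmb5, Psmb6 and Psmb7 cut peptide bonds, while the regulatory particle recognises tagged proteins and its ATPases unfold them and feed them into the core. In some immune cells and after interferon-gamma the cutting subunits are replaced by Psmb8, Psmb9 and Psmb10, which gives the immunoproteasome and changes the peptides offered on MHC class I. When proteasome activity falls, the transcription factor Nfe2l1 raises the constitutive genes through antioxidant response elements.

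Cells were placed in classes by marker genes, none of them a proteasome gene, so each class name stands for cells that passed that gate, such as neutrophil-like cells. After the filters 7564 to 17791 cells per library remained. The median was 7672.5 to 8616 UMIs (unique molecular identifiers, counts of captured RNA molecules) per cell in 4 libraries and 2445 in the second JAG2KO library, which stood apart. Monocytes and macrophages made up most cells, with 5597 to 14254 per library, and the smallest tested class in all libraries, NK cells, had 23 to 89. Pairs of libraries shared 26 to 74 cell barcodes. Summed over all kept cells, Jag2 was at 4.0, 3.04 and 4.52 UMIs per 1000000 (CPM, Scramble) and 3.62 and 2.32 (JAG2KO), which checks no label, since the sort kept CD45+ cells. In cells gated on Rhox5 RNA (Rhox5-positive), Jag2 had 1, 5 and 4 UMIs (Scramble) and 3 and 0 (JAG2KO), too few to check a label. No label ties a library to a mouse of its own, so p-values may measure only the technical spread between these samples. Macrophage-marker RNA in the other classes was 3.15 to 5.07% of its level in monocytes and macrophages in cDC1, 7.63 to 9.46% in cDC2, 4.69 to 7.75% in migratory dendritic cells, 3.83 to 7.95% in T cells, 3.81 to 6.86% in NK cells and 15.4 to 17.0% in monocytes, and its part in the differences was not tested. The gates of these classes asked for a low share of these markers in each cell, which caps the percentages. Psma2 and Psmd12 overlap another gene on their strand, and 10 members overlap one on the opposite strand (Psma3, Psma4, Psma5, Psmb7, Psmc3, Psmd1, Psmd3, Psmd5, Psmd9 and Psmd13), so that some of their reads may belong to the neighbour.

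Promoter stretches of 6 members are shown because their genes stand for the core particle (Psma3, Psmb5 and Psmb6) and for the regulatory particle (Psmc6, Psmd2 and Psmd14), whose genes differed unequally between cell classes. Each is 160 bases upstream of the RefSeq start site (GRCm38.p6), as close to it as GENCODE exons allow, written 5′ to 3′ on the gene's strand. Capitals mark matches, on either strand, to TGACNNNGC (the core of the antioxidant response element), CCGGAAG (an ETS motif), GCGC and GCGC with any 2 bases between (the nuclear respiratory factor motif) or CCAAT (the NF-Y box).
Psma3 (chr12:70974461-70974620, plus strand): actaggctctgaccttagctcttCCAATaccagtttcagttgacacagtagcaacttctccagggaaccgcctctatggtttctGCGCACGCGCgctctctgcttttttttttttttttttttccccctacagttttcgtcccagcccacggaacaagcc
Psmb5 (chr14:54618023-54618182, minus strand): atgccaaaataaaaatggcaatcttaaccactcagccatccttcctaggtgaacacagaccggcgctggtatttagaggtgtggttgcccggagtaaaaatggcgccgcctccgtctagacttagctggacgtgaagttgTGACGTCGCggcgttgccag
Psmb6 (chr11:70525197-70525356, plus strand): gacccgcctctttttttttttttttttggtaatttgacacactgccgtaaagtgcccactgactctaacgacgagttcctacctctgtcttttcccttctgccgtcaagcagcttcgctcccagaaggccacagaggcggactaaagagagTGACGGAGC
Psmc6 (chr14:45329628-45329787, plus strand): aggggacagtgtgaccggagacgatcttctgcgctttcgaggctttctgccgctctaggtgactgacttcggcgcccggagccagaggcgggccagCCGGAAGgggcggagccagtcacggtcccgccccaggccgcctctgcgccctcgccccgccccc
Psmd2 (chr16:20651492-20651651, plus strand): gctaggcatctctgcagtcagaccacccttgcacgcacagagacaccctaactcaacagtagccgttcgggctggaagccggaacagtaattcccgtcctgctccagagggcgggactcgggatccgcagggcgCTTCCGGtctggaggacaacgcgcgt
Psmd14 (chr2:61711534-61711693, plus strand): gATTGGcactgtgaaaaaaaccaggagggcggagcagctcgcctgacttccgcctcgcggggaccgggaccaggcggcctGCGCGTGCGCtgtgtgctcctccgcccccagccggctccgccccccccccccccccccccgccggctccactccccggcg
RefSeq promoters were matched for 29 of the 36 members, and the letters were searched in the 250 bases before each start site of these and of all 27025 genes in the table. CCGGAAG was present in 8 of 29 members (27.6%) and in 7.05% of all promoters. All 8 were among the 17 matched genes of the regulatory particle and its chaperones, against 0 of 12 core particle genes. The nuclear respiratory factor motif was present in 6 members (20.7% against 5.09% of all), 3 of 12 core genes and 3 of the 17 others. TGACNNNGC was in 5 (17.2% against 10.1%), 2 of 12 and 3 of 17, among them Psmc6 but not within its stretch above. CCAAT was in 12 (41.4% against 34.5%), 7 of 12 and 5 of 17. Each stretch shown holds a match, while some of the 29 members hold none in the bases searched. The motifs do not overlap one another in the stretches shown. A match describes the letters and is not a binding site.

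In monocytes and macrophages the members ran from Psma7 at the top to 2 genes that were close to absent. Levels are CPM, UMIs per 1000000 UMIs of the class (3′ tags, 1 per captured molecule, so gene length enters little but capture differs between genes). Psma7, an alpha ring subunit, was at 415, 400.2 and 385 (Scramble) and 394 and 414 (JAG2KO), a spread of 3.23% (coefficient of variation over the 5 libraries), the smallest among the members of at least 1 CPM. Psmb4, a structural beta subunit, followed at 259 ± 9.98 (SD, n = 5) and Psmb1 at 249 ± 8.79. Their ranges over libraries overlapped, while all libraries of Psma7 were above both. The highest gene of the regulatory particle was Psmd8, a lid subunit, at 210.1 ± 12.9, and the lowest was Psmd3 at 72.5 ± 2.77. The assembly chaperones lay below every subunit other than Psma8 and Psmb11, with Psmd10 at 31.6, Psmd9 at 29.2 and Psmd5 at 22.0. Psmc1, an ATPase of the base, varied most between libraries (20.4%), at 158, 114 and 109.6 (Scramble) and 162 and 110.2 (JAG2KO). The first library of each genotype was high and the other 3 were close to each other, so this spread did not follow the genotype. The median coefficient of variation of the 35 members of at least 1 CPM was 6.44%.

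Psma8 and Psmb11, which are known as the testis and thymus forms of an alpha and a beta subunit, were low. Psma8 gave 497 UMIs in monocytes and macrophages over the 5 libraries (1.5 CPM). The smaller classes cDC1 and cDC2 gave 9 (3.25 CPM) and 6 (1.24 CPM). There was 1 each in neutrophils, T cells, migratory dendritic cells and Rhox5-positive cells. NK cells had none, which allows up to 2.47 CPM (3 counts over the 5 libraries, counting error only). Psmb11 gave 15 UMIs in monocytes and macrophages and entered no test. Psma8 counts among the 35 members tested in comparisons with monocytes and macrophages, and its fold changes are not given because few UMIs stand behind them in the other classes.

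Together the members took 0.525, 0.482 and 0.468% (Scramble) and 0.504 and 0.503 (JAG2KO) of the UMIs of monocytes and macrophages. Neutrophils stood far below, at 0.190, 0.184 and 0.164% (Scramble) and 0.175 and 0.135 (JAG2KO), and no neutrophil library overlapped any library of another class. cDC1, the dendritic cells known for cross-presenting antigen to CD8 T cells, were highest with Rhox5-positive cells: cDC1 reached 0.613, 0.594 and 0.562% (Scramble) and 0.591 and 0.577 (JAG2KO). Rhox5-positive cells averaged 0.586 ± 0.0217 percent (SD, n = 5), and the libraries of these classes overlapped. In between lay cDC2 (0.521 ± 0.0171), monocytes alone (0.495 ± 0.0125), T cells (0.435 ± 0.0276), migratory dendritic cells (0.430 ± 0.0210) and NK cells (0.402 ± 0.0456). T cells, migratory dendritic cells and NK cells did not separate from one another. These shares have no test, since the genes were chosen as a list, and RNA per cell and the amount of other RNA cannot be told apart in them.

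**Figure D1:**
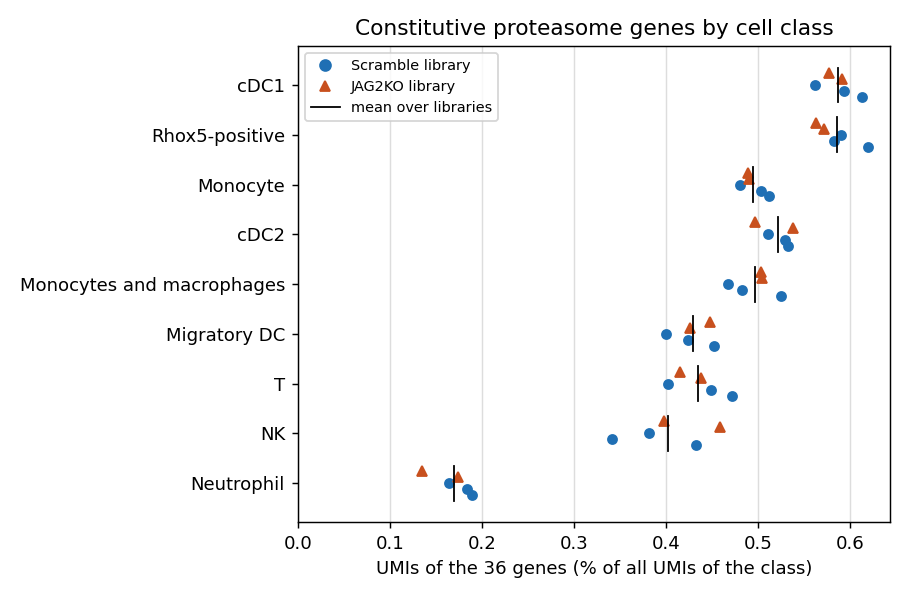
UMIs of the 36 genes as a percentage of all UMIs of each cell class, with 1 point per library (circles Scramble, triangles JAG2KO) and a black line at the mean. Neutrophils average 0.169% and lie apart from every other class, and cDC1 and Rhox5-positive cells are highest at 0.587% and 0.586%.

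Each class was then compared with monocytes and macrophages of the same libraries, gene by gene, by edgeR's quasi-likelihood test over all genes with the library as a block. Values are log2 fold changes ± standard error over 5 libraries, called at an adjusted p under 0.05. For edgeR, here and below, the standard error was computed back from the fold change and the test's F statistic. In neutrophils 30 of 35 tested members were lower and 0 higher, where 34.2% of all genes tested were lower and 25.9% higher, and the members' median was -0.81 against -0.38 for all genes. Both particles took part: 14 of 15 core genes and 15 of 17 regulatory genes were lower. The furthest were Psmd1, a scaffold of the base (-1.51 ± 0.15, adjusted p = 3.11e-21), Psmd7, the lid partner of the deubiquitinase Psmd14 (-1.49 ± 0.15, adjusted p = 4.64e-21), the ATPase Psmc5 (-1.36 ± 0.17, adjusted p = 3.83e-14) and the lid subunit Psmd3 (-1.22 ± 0.18, adjusted p = 3.82e-11). Psmd1 stood at 25.9, 34.9 and 23.0 CPM (Scramble) and 29.8 and 32.0 (JAG2KO) in neutrophils, against 132 to 150.3 in monocytes and macrophages. The groups of libraries did not overlap. Psmc6 (0.03), Psmd4 (0.12), Psmd9 (-0.49), Psmd10 (-0.44) and Psma8 were not called. Among the cutting subunits Psmb6 was -0.94 ± 0.13, adjusted p = 3.59e-12, Psmb7 -0.64 ± 0.14, adjusted p = 1.45e-05 and Psmb5 -0.55 ± 0.13, adjusted p = 9.69e-05. Macrophage markers were present in the neutrophil sums at 8.17 to 14.0% of their level in monocytes and macrophages. With class totals in place of TMM, edgeR's scaling to the bulk of genes, 35 members were lower, as the median of all genes moved from -0.38 to -1.16 and that of the members to -1.59.

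In T and NK cells most regulatory particle genes were lower as well. In T cells 26 of the 35 members were lower and 0 higher (all genes 31.2% lower and 24.1% higher, medians -0.55 for the members and -0.14 for all genes). These were 16 of 17 regulatory genes and 10 of 15 core genes, with Psma8 among the latter on 1 UMI. Psmd1 (-1.19 ± 0.12, adjusted p = 1.15e-08) and Psmc1 (-1.01 ± 0.11, adjusted p = 8.72e-08) led, followed by the lid subunit Psmd6 (-0.91 ± 0.12, adjusted p = 1.74e-06) and the alpha subunit Psma6 (-0.78 ± 0.11, adjusted p = 1.8e-06). In NK cells 23 were lower and 0 higher (all genes 23.7% and 14.6%, medians -0.52 and -0.24), which were 16 of 17 regulatory and 7 of 15 core genes, with Psmc5 (-1.15 ± 0.22, adjusted p = 1.22e-06), Psmc1 (-1.04 ± 0.18, adjusted p = 9.14e-08), Psmd1 (-1.02 ± 0.18, adjusted p = 6.94e-08) and Psmd3 (-0.92 ± 0.22, adjusted p = 0.000151) first. NK counts rest on few cells, and 15 were called lower by DESeq2 and 14 with a stricter gate. Mast cells and basophils, with 20 or more cells in 3 libraries, had 3 members lower (Psmd1, Psmd2 and Psmd6) and 0 higher, against 9.35% and 5.75% of all genes, and DESeq2 called 0 lower. The count of lower members was near the share of the genes at large.

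In cDC1 most core particle genes were higher, by TMM and by class totals, and most regulatory particle genes were not. Of 35 members 16 were higher and 4 lower, against 18.2% and 26.8% of all genes, and the members' median was 0.18 where that of all genes was -0.20. By role, 13 of 15 core genes were higher and 0 lower, with all 7 tested beta subunits among them, whereas 3 of 17 regulatory genes were higher and 4 lower. Psma3, an alpha subunit, was at 447, 367 and 389 CPM (Scramble) and 358 and 387 (JAG2KO) in cDC1 and at 227, 199.7 and 182 (Scramble) and 206 and 229 (JAG2KO) in monocytes and macrophages. All cDC1 libraries lay above all of the others, a difference of 0.93 ± 0.09, adjusted p = 1.98e-13. Psma4 (0.89 ± 0.09, adjusted p = 9.23e-13), Psmb7 (0.67 ± 0.10, adjusted p = 4.13e-08) and Psma5 (0.64 ± 0.10, adjusted p = 9.85e-08) came next. The 4 lower genes were Psmd1 (-0.61 ± 0.11, adjusted p = 1.26e-05), Psmc1 (-0.51 ± 0.12, adjusted p = 0.000363), Psmd8 (-0.44 ± 0.10, adjusted p = 0.000257) and Psmd2, the second scaffold of the base (-0.39 ± 0.10, adjusted p = 0.00121). Class totals gave 16 higher and 4 lower. When every cell was thinned to 1000 UMIs, 1 was higher and 3 were lower, with medians of -0.11 for the members and -0.45 for all genes.

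In cDC2 fewer members were higher, and fewer still with another scaling: by TMM 13 were higher and 2 lower (all genes 18.6% and 21.6%), led by Psma4 (0.59 ± 0.08, adjusted p = 1.11e-07), Psma3 (0.54 ± 0.08, adjusted p = 4.79e-07), Psmb1 (0.52 ± 0.08, adjusted p = 6.93e-07) and Psma7 (0.42 ± 0.08, adjusted p = 3.23e-05), while Psmc1 (-0.46 ± 0.10, adjusted p = 0.000172) and Psmd1 (-0.28 ± 0.09, adjusted p = 0.0153) were lower. Of the 13 higher genes 10 were core genes. Thinning gave 2 higher and a stricter gate 5. With class totals in place of TMM 6 were higher and 5 lower, as the median of all genes moved from -0.11 to -0.25. In migratory dendritic cells, which carry antigen to lymph nodes, 6 members were higher and 10 lower (all genes 20.2% and 27.9%), both near the shares of the genes at large. The higher ones were Psma5 (0.53 ± 0.12, adjusted p = 0.000228), Psma3 (0.52 ± 0.12, adjusted p = 0.000161), Psma7 (0.39 ± 0.11, adjusted p = 0.00252), Psma2 and Psmb1 of the core and the chaperone Psmd10 (0.60 ± 0.19, adjusted p = 0.00472). No regulatory gene was higher and 7 of 17 were lower, among them Psmd12 (-0.84 ± 0.15, adjusted p = 2.62e-06), Psmd3 (-0.68 ± 0.16, adjusted p = 0.000274) and Psmc1 (-0.66 ± 0.14, adjusted p = 6.17e-05). The chaperone Psmd5 was called lower (-1.11 ± 0.31, adjusted p = 0.00223) on 24 UMIs, a mean of under 5 per library, at 12.2, 0 and 2.51 CPM (Scramble) and 9.87 and 13.6 (JAG2KO). Class totals gave 2 higher and 18 lower, so the count of higher genes in this class depends on the scaling. Thinning gave 0 higher, with Psma7 at -0.066 (adjusted p = 0.808).

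Monocytes, set against the macrophages of the same libraries, had more of the core genes higher than of the regulatory genes by TMM, while class totals gave 8 members higher and 14 lower. By TMM 11 of 35 members were higher and 8 lower (all genes 23% and 31.4%), and 9 of 15 core genes were higher with 0 lower, against 2 higher and 6 lower of 17 regulatory genes. Psma7 was at 584, 596 and 543 CPM (Scramble) and 590.5 and 606 (JAG2KO) in monocytes and at 409.7, 395, 378, 389 and 411 in the macrophages of the same libraries in that order. Every monocyte library was above every macrophage library (0.72 ± 0.06, adjusted p = 1.58e-10). Psma2 (0.48 ± 0.06, adjusted p = 3.12e-07), Psmb1 (0.39 ± 0.06, adjusted p = 4.45e-06) and Psma3 (0.35 ± 0.06, adjusted p = 3.21e-05) followed, and Psmd1 (-0.62 ± 0.08, adjusted p = 2.24e-07), Psmd5 (-0.57 ± 0.15, adjusted p = 0.0024), Psmd7 (-0.46 ± 0.07, adjusted p = 1.3e-05) and Psmc1 (-0.45 ± 0.08, adjusted p = 2.03e-05) were lowest. The median of all genes was -0.13 by TMM and -0.30 with class totals. The 8 lower members became 5 without Scramble 1, without JAG2KO 1, with a stricter gate or without the library block, and 4 by DESeq2 or with thinning.

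**Figure D2:**
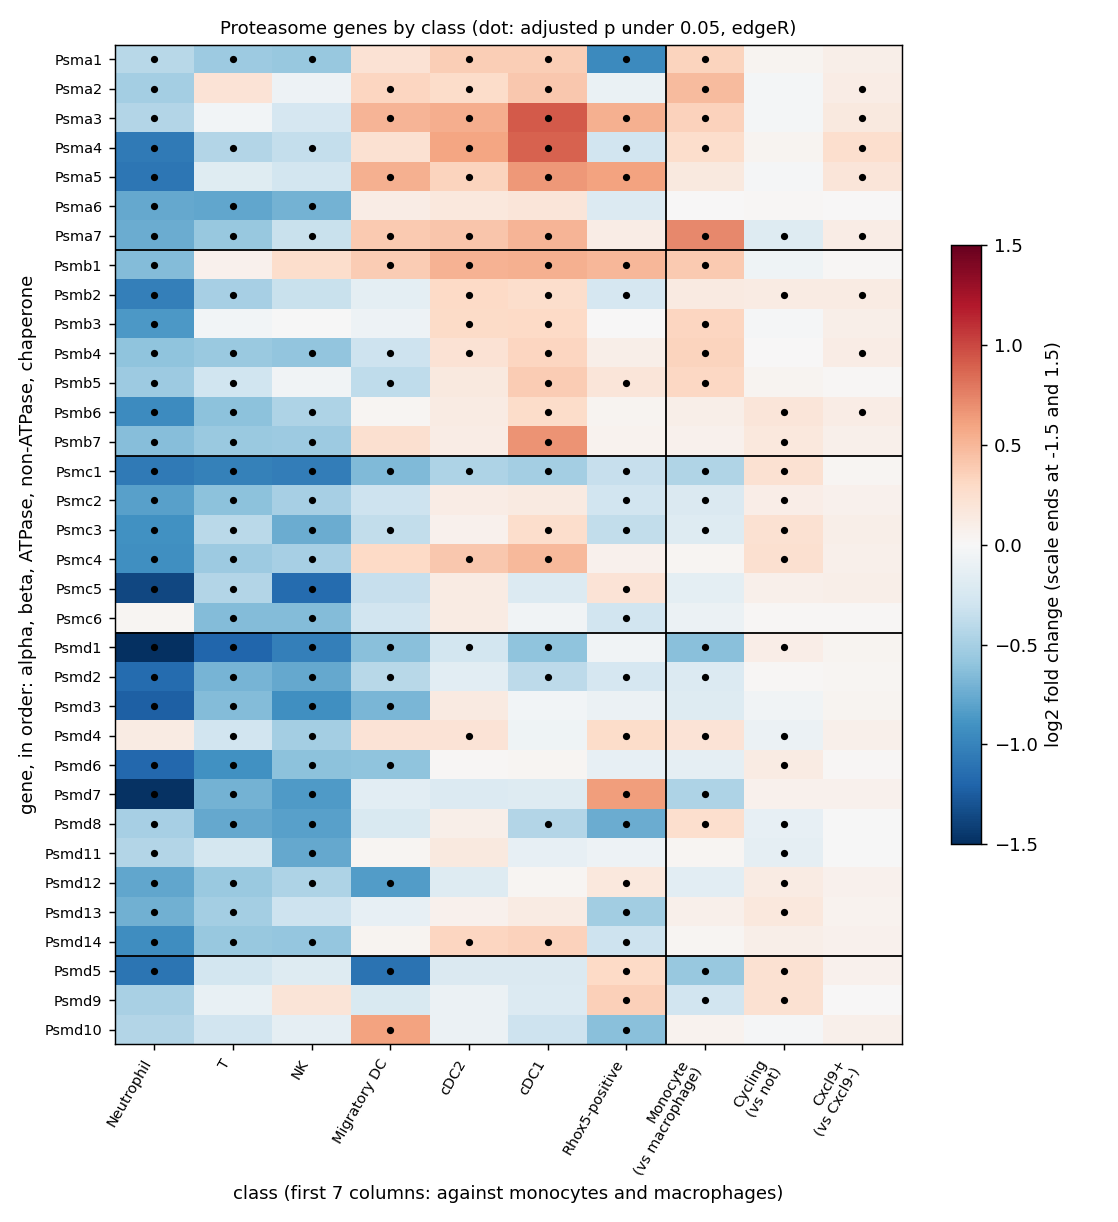
Log2 fold changes of the 34 constitutive genes other than Psma8 and Psmb11 in 10 comparisons (columns), with rows in the order alpha ring, beta ring, ATPases, other regulatory subunits and chaperones, and a dot where the adjusted p was under 0.05. Colours end at -1.5 and 1.5. Neutrophils, T and NK cells are mostly blue (lower), and cDC1 has 13 red (higher) dots among core genes and 3 among regulatory genes.

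The balance of the particles can be read within a library, where scaling drops out. Core particle UMIs per regulatory particle UMI were 1.43, 1.42 and 1.37 (Scramble) and 1.29 and 1.52 (JAG2KO) for monocytes and macrophages. In cDC1 the ratio was 2.11, 2.06 and 2.12 (Scramble) and 1.88 and 2.28 (JAG2KO). All cDC1 libraries were above all of those of monocytes and macrophages, by 1.44 to 1.55 times within a library. Migratory dendritic cells (1.92 ± 0.0973, SD, n = 5), monocytes (1.90 ± 0.132), NK cells (1.90 ± 0.141), cDC2 (1.74 ± 0.111) and T cells (1.73 ± 0.177) came next and overlapped one another. Rhox5-positive cells (1.60 ± 0.0973) and neutrophils (1.51 ± 0.178) were nearest to monocytes and macrophages. In every one of the 5 libraries cDC1, cDC2, migratory dendritic cells, monocytes, T, NK and Rhox5-positive cells were above monocytes and macrophages of that library, and neutrophils were above in 4 of 5. The second JAG2KO library had the highest ratio in 7 of these 9 classes.

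The cutting subunits were compared with their immunoproteasome counterparts. Psmb5, with chymotrypsin-like activity, was at 168, 152 and 147 CPM (Scramble) and 139 and 158 (JAG2KO) of monocytes and macrophages, Psmb6 (caspase-like) at 212 ± 11.6 (SD, n = 5) and Psmb7 (trypsin-like) at 120.5 ± 4.85. Psmb8, Psmb9 and Psmb10, which take the places of Psmb5, Psmb6 and Psmb7, held 45.1 ± 2.79% of the UMIs of these 6 genes there. That share was 58.1 ± 1.99% in monocytes, 55.0 ± 6.16% in neutrophils, 62.8 ± 2.17% in cDC2, 66.8 ± 4.24% in NK cells, 71.5 ± 1.84% in T cells, 75.0 ± 1.26% in cDC1 and 78.0 ± 3.25% in migratory dendritic cells. Rhox5-positive cells were lowest at 10.1, 13.1 and 10.0% (Scramble) and 12.3 and 16.9 (JAG2KO). No library of them overlapped another class.
In cDC1 the counterparts and the constitutive cutting genes were both higher than in monocytes and macrophages. Psmb8 was at 1297, 1207 and 1105 CPM (Scramble) and 1167 and 1143 (JAG2KO), against 192 to 247 (2.47 ± 0.08, adjusted p = 5.1e-31), and Psmb9 differed by 2.94 ± 0.09, adjusted p = 1.24e-32. Psmb5 (0.38 ± 0.09, adjusted p = 0.000543), Psmb6 (0.27 ± 0.09, adjusted p = 0.011) and Psmb7 (0.67 ± 0.10, adjusted p = 4.13e-08) were higher too, while Psmb10 was not called (0.16 ± 0.11, adjusted p = 0.256). With cells thinned to 1000 UMIs Psmb5 turned to -0.13 (adjusted p = 0.773). Migratory dendritic cells had Psmb8 (2.28 ± 0.12, adjusted p = 2.79e-28) and Psmb9 (2.55 ± 0.13, adjusted p = 1.06e-29) higher with Psmb5 lower (-0.38 ± 0.13, adjusted p = 0.0109). T cells had Psmb8 (1.23 ± 0.10, adjusted p = 3.05e-10) and Psmb9 (1.61 ± 0.11, adjusted p = 4.44e-11) higher and all 3 constitutive counterparts lower, with Psmb6 at -0.61 ± 0.10, adjusted p = 2.41e-05. NK cells had Psmb8 (0.97 ± 0.13, adjusted p = 5.18e-13) higher, and their Psmb5 was not called (-0.05 ± 0.15, adjusted p = 0.836). In neutrophils the immunoproteasome genes counted 1 higher and 1 lower of 3 (all genes 25.9% and 34.2%), while Psmb5, Psmb6 and Psmb7 were all lower.

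**Figure D3:**
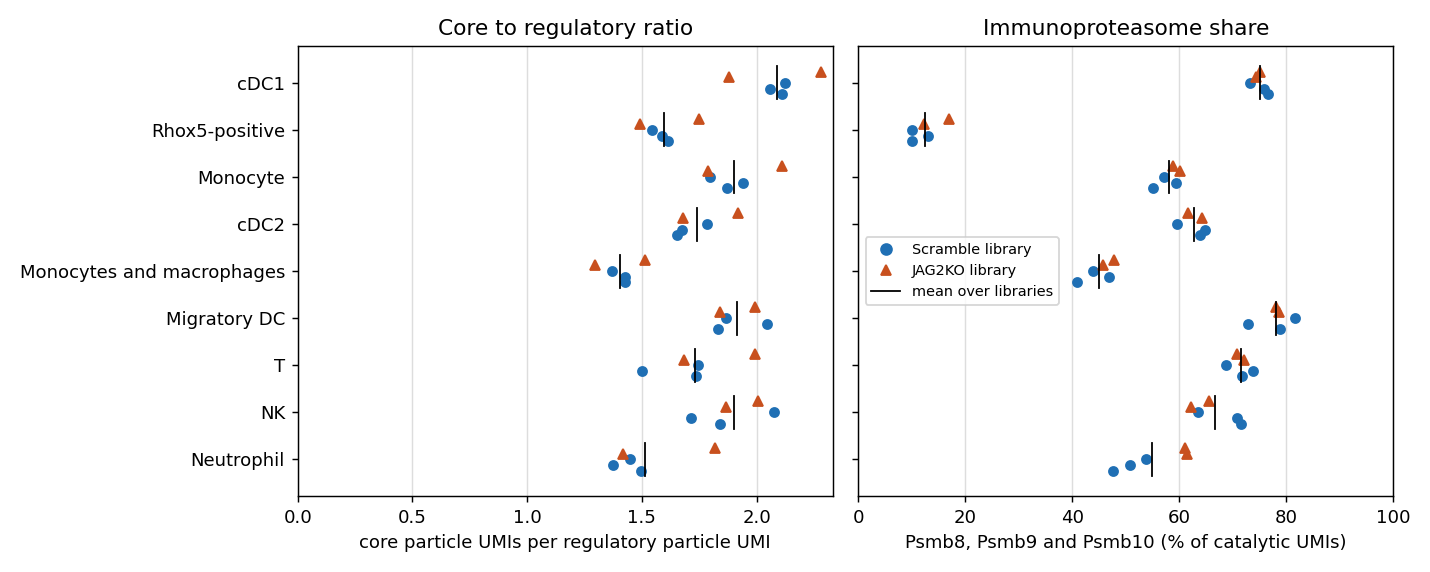
Left, core particle UMIs per regulatory particle UMI, and right, the percentage of the UMIs of the 6 catalytic genes that came from Psmb8, Psmb9 and Psmb10, by cell class, with 1 point per library (circles Scramble, triangles JAG2KO) and a black line at the mean. The left ratio runs from 1.41 in monocytes and macrophages to 2.09 in cDC1, and the right share from 12.5% in Rhox5-positive cells to 78.0% in migratory dendritic cells.

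Rhox5-positive cells, 55 to 151 per library, carried Rhox5 with keratin or Epcam RNA and were in the CD45-sorted libraries. Their macrophage markers were at 2.12 to 2.89% of monocytes and macrophages, a low level that the gate itself asked for. Of the cell-cycle genes 8 of 9 were over 2-fold higher there than in the other cells (median 145 CPM, against 50.01 in monocytes and macrophages), as were 7 of 8 fibroblast markers (median 144 CPM, against 5.18), and their part in the members' values was not tested. Their members split in both directions, 10 higher and 13 lower (all genes 33.8% and 40.7%), and neither was a larger share than among the genes at large. Class totals turned the split to 17 higher and 5 lower as the median of all genes moved from -0.11 to 0.13. Thinning gave 3 higher and a stricter gate 6, and the 13 lower include Psma8 with its 1 UMI. Psmd7 (0.62 ± 0.07, adjusted p = 1.23e-05), Psma5 (0.60 ± 0.09, adjusted p = 0.000143), Psma3 (0.54 ± 0.08, adjusted p = 0.000154) and Psmb1 (0.50 ± 0.06, adjusted p = 3.77e-05) were highest. Psma1 (-0.96 ± 0.07, adjusted p = 8.1e-07), Psmd8 (-0.74 ± 0.06, adjusted p = 2.05e-06), the chaperone Psmd10 (-0.62 ± 0.12, adjusted p = 0.000714) and the lid subunit Psmd13 (-0.52 ± 0.07, adjusted p = 0.000115) were lowest. Psma1 was at 115, 109.7 and 115 CPM (Scramble) and 94.0 and 108 (JAG2KO), below the 167 to 190.3 of monocytes and macrophages in all libraries. Psmb8 was at 16.7, 25.7 and 13.9 (Scramble) and 18.9 and 42.4 (JAG2KO), a difference of -3.51 ± 0.16, adjusted p = 3.69e-08.

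Within monocytes and macrophages, cells with a UMI of Cxcl9, a gene known to be induced by interferon-gamma, were set against those without. Of 35 members 8 were higher and 0 lower, against 6.35% and 5.63% of all genes. All 8 were core genes (Psma2, Psma3, Psma4, Psma5, Psma7, Psmb2, Psmb4 and Psmb6) and 0 of 17 regulatory genes were called. The differences were small: Psma4 0.25 ± 0.03, adjusted p = 2.69e-05, Psma5 0.18 ± 0.03, adjusted p = 0.000301, Psma3 0.15 ± 0.03, adjusted p = 0.000814 and Psmb2 0.13 ± 0.03, adjusted p = 0.00435. Psma3 stood at 259.6, 208 and 199 CPM (Scramble) and 223 and 247 (JAG2KO) with Cxcl9 and at 226, 198, 181, 201 and 223 without it. It was higher with Cxcl9 in 5 of 5 libraries, yet the ranges overlapped, and without the library block 0 members were called. The immunoproteasome genes differed by more, with Psmb9 at 0.77 ± 0.04, adjusted p = 3.72e-09, Psmb8 at 0.58 ± 0.04, adjusted p = 1.73e-08 and Psmb10 at 0.49 ± 0.03, adjusted p = 1.05e-07. The share of immunoproteasome among catalytic UMIs was 52.8 ± 0.918% with Cxcl9 and 43.5 ± 2.26% without (SD, n = 5). Thinned to 1000 UMIs per cell, 3 members were higher and 0 lower.
Cells with 3 or more of 9 cell-cycle genes were set against the rest in the same way. Of 35 members 13 were higher and 4 lower in them (all genes 26.5% and 25.7%), and 8 of 17 regulatory genes were higher with 3 lower, against 3 and 1 of 15 core genes. The ATPases Psmc4 (0.24 ± 0.03, adjusted p = 0.000114) and Psmc1 (0.23 ± 0.03, adjusted p = 0.000202) and the chaperones Psmd9 (0.23 ± 0.04, adjusted p = 0.000923) and Psmd5 (0.23 ± 0.04, adjusted p = 0.0016) were highest. Psma7 (-0.19 ± 0.03, adjusted p = 0.000339), Psmd11 (-0.14 ± 0.03, adjusted p = 0.00163), Psmd8 (-0.13 ± 0.02, adjusted p = 0.00143) and Psmd4, a ubiquitin receptor (-0.09 ± 0.03, adjusted p = 0.0145), were lower. Thinning left 1 higher and 3 lower and turned Psmd5 to -0.089 (adjusted p = 0.89), class totals gave 23 and 3, and without the library block 2 were higher and 2 lower.

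JAG2KO and Scramble libraries were compared within each class, the question the study's design poses. In monocytes and macrophages 0 of 35 tested members were called, with 0 at an unadjusted p under 0.05 and 0 by DESeq2, where 0.612% of all genes tested were called. Apart from Psma8, differences ran from -0.15 (Psmd12) to 0.15 (Psmd10), with a median standard error of 0.09, and for all 34 the interval of 2 standard errors stayed within a 2-fold change. Psmc5 had the smallest p (-0.15 ± 0.08, adjusted p = 0.43), at 88.7, 83.6 and 80.6 CPM (Scramble) and 79.0 and 74.7 (JAG2KO). Both JAG2KO libraries were below all 3 Scramble libraries, which was so for 1 of 36 members while 3 lay above all, and separation in either direction held for 29.7% of all genes of at least 1 CPM. Psmc6 (0.15 ± 0.08, adjusted p = 0.436) and Psmd12 (-0.15 ± 0.09, adjusted p = 0.465) followed. The cutting subunits were at -0.08 ± 0.11 (Psmb5), -0.01 ± 0.10 (Psmb6) and -0.05 ± 0.08 (Psmb7), beside 0.13 ± 0.13 for Psmb8, 0.27 ± 0.18 for Psmb9 and 0.03 ± 0.10 for Psmb10, none of them called.

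The other immune classes gave no called member either, by edgeR or by DESeq2. Of the members tested, 0 of 34 were called in monocytes (all genes 0.449%), 0 of 33 in neutrophils (0.683%), 0 of 34 in cDC1 (0.191%), 0 of 34 in cDC2 (0.206%), 0 of 33 in migratory dendritic cells (0.062%), 0 of 33 in T cells (0.44%), 0 of 29 in NK cells (0.119%) and 0 of 35 in all kept cells together (6.65%). At an unadjusted p under 0.05 there were 2 in neutrophils, 1 each in cDC1, cDC2 and NK cells and 0 in the other classes. The largest value was that of Psmd3 in neutrophils (-1.98 ± 0.68, adjusted p = 0.304), on 81 UMIs in all. In neutrophils 10 of 36 members lay below all Scramble libraries in both JAG2KO libraries and 1 above, where 30.4% of all genes of at least 1 CPM were separated in either direction. Precision was lower in small classes, with a median standard error of 0.37 in neutrophils, 0.33 in NK cells and 0.22 in T cells. T cells with a Cd8a or Cd8b1 UMI made up 10.3 to 14.7% of T cells in Scramble and 39.2 to 43.6% in JAG2KO libraries, so the makeup of that class differed beside its members' values, and its part in them was not tested.

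A single member was called, in Rhox5-positive cells. Psma6, an alpha subunit whose gene lies on the plus strand at chr12:55384222-55418454 (GRCm38, exons and introns), was at 256, 237 and 237 CPM (Scramble) and 163 and 182 (JAG2KO), so both JAG2KO libraries lay below all Scramble libraries (-0.46 ± 0.12, adjusted p = 0.0446). This was 1 lower and 0 higher of 34 tested members, where 4.01% and 3.32% of all genes were called, so the members held no larger share than the genes at large. Such separation was common in this class: 12 of 36 members lay below and 3 above in both JAG2KO libraries, where 38.1% of all genes of at least 1 CPM were separated in either direction. In monocytes and macrophages Psma6 was at 218, 200.2 and 194 (Scramble) and 200.2 and 226 (JAG2KO) and overlapped. The difference between these effects was -0.48 ± 0.11, adjusted p = 0.0478 (interaction term, 1 of 35 members, against 2.17% of all genes). The call was lost with doublets kept, with a stricter gate and with cells thinned to 1000 UMIs. It was also lost when any Scramble library was left out and with the replicate number as a block. Fewer libraries lower the power, and the block leaves few degrees of freedom, so these losses do not show which library carried the call. Leaving out a JAG2KO library leaves 1 in that group and cannot decide it either. Psma5 moved the other way without passing the test, at 216, 176 and 183 (Scramble) and 258 and 242 (JAG2KO) (0.42 ± 0.13, adjusted p = 0.0763). Psmc5 (-0.37 ± 0.13, adjusted p = 0.102) and Psma4 (-0.28 ± 0.12, adjusted p = 0.187) were not called.

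**Figure D4:**
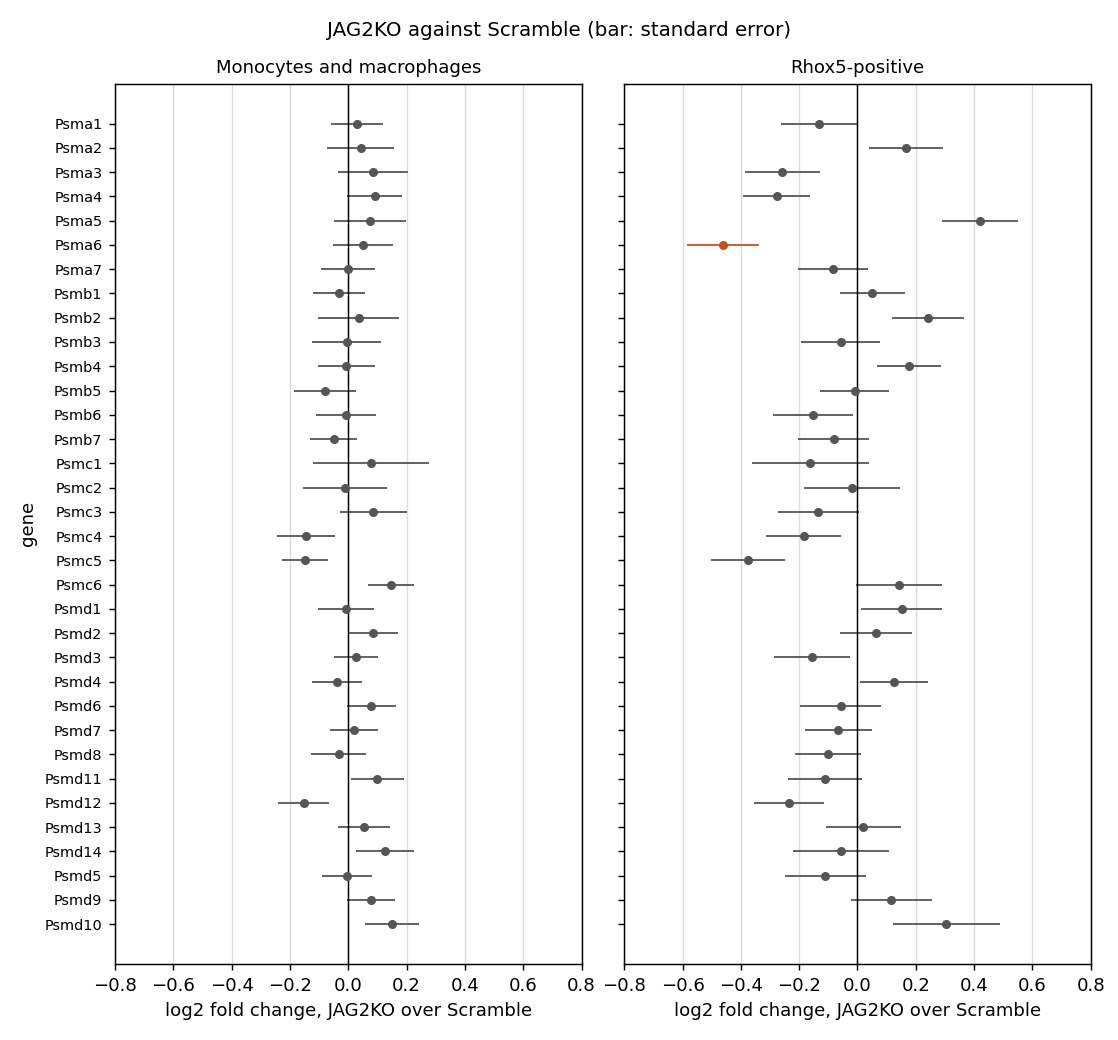
Log2 fold changes of JAG2KO over Scramble for the constitutive genes in monocytes and macrophages (left) and Rhox5-positive cells (right), with bars of 1 standard error and orange where the adjusted p was under 0.05. On the left all genes lie between -0.15 and 0.15, and on the right Psma6 (-0.46) is the only orange point.

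Other genes of the pathway were counted in lists by function. The activators Psme1 and Psme2, whose products cap the core particle in place of the regulatory particle, differed between classes. Psme1 was at 980.5, 943 and 987 CPM (Scramble) and 884 and 947 (JAG2KO) in cDC1 and at 243 ± 16.2 (SD, n = 5) in monocytes and macrophages, a difference of 1.99 ± 0.08, adjusted p = 2.91e-27. It was also higher in migratory dendritic cells (2.35 ± 0.12, adjusted p = 1.39e-29), cDC2 (0.89 ± 0.08, adjusted p = 5.37e-12) and monocytes against macrophages (0.85 ± 0.06, adjusted p = 1.46e-11), as was Psme2 in migratory dendritic cells (2.91 ± 0.12, adjusted p = 3.42e-35), in monocytes (0.89 ± 0.07, adjusted p = 5.71e-11) and with Cxcl9 (0.61 ± 0.03, adjusted p = 8.84e-09). In neutrophils the activators Psme1 to Psme4 counted 0 higher and 2 lower of 4 (all genes 25.9% and 34.2%). They counted 2 higher and 1 lower of 4 in T cells (all genes 24.1% and 31.2%) and in NK cells (14.6% and 23.7%). The further assembly factors (Pomp and Psmg1 to Psmg4 for the core and Paaf1 for the base) counted 0 higher and 5 lower of 5 tested in neutrophils and 2 higher and 0 lower of 5 in cDC1, where Pomp, which matures the beta ring, differed by 1.44 ± 0.08, adjusted p = 4.1e-22. Of all genes 34.2% were lower in neutrophils and 18.2% higher in cDC1. Psmg4 was higher in migratory dendritic cells (2.16 ± 0.12, adjusted p = 2.64e-26).
Peptide presentation genes (Tap1, Tap2, Tapbp, Erap1, Nlrc5 and Irf1) counted 5 higher and 0 lower of 6 in cDC1, 5 higher and 0 lower of 6 in migratory dendritic cells, 4 higher and 0 lower of 6 in T cells, 6 higher and 0 lower of 6 with Cxcl9 and 1 higher and 5 lower of 6 in Rhox5-positive cells. Of all genes 18.2% were higher in cDC1, 20.2% in migratory dendritic cells, 24.1% in T cells and 6.35% with Cxcl9. In Rhox5-positive cells 33.8% of all genes were higher and 40.7% lower. Tap1, a subunit of the peptide transporter, was 2.41 ± 0.10, adjusted p = 6.64e-27 in cDC1 and -3.07 ± 0.11, adjusted p = 6.85e-09 in Rhox5-positive cells. Irf1, an interferon-induced factor, was higher in migratory dendritic cells (3.26 ± 0.13, adjusted p = 3.92e-35) and neutrophils (2.09 ± 0.13, adjusted p = 3.08e-48).
Regulators and other genes that serve ubiquitin-tagged proteins differed between classes as well. Nfe2l2, the relative of Nfe2l1 that answers oxidative stress, was higher in neutrophils (2.23 ± 0.10, adjusted p = 5.42e-82) and lower in T cells (-2.60 ± 0.14, adjusted p = 2.13e-13) and NK cells (-2.41 ± 0.19, adjusted p = 7.95e-37). Vcp, the ATPase that extracts ubiquitin-tagged proteins, was lower in neutrophils (-1.75 ± 0.13, adjusted p = 1.23e-37) and NK cells (-1.06 ± 0.14, adjusted p = 1.7e-12). Cycling cells had more Uchl5, a deubiquitinase of the regulatory particle (0.74 ± 0.04, adjusted p = 3.08e-07), and less Nfe2l2 (-0.59 ± 0.04, adjusted p = 2.29e-06). With JAG2KO, Irf1 was higher over all kept cells (0.79 ± 0.18, adjusted p = 0.0478), where 6.65% of all genes were called. That sum pools classes, with 103, 87 and 68 T cells (Scramble) and 477 and 427 (JAG2KO), and the part of this makeup was not tested. Irf1 was not called in monocytes and macrophages (0.83 ± 0.16, adjusted p = 0.0793), at 20.5, 29.4 and 28.9 CPM (Scramble) and 50.9 and 43.7 (JAG2KO), where the groups did not overlap. Nfe2l2 had the second smallest p there (0.49 ± 0.12, adjusted p = 0.126). No gene of these lists was called in a JAG2KO comparison within a class, and none besides Irf1 over all kept cells.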

How the data were processed

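The 5 droplet libraries of 3′ RNA tags were used as UMI counts per gene and cell, which the authors deposited unnormalized after removing barcodes without a cell, per the labels and the file headers. The file headers name cellranger 6.0.0. Seurat and the builds GRCm38 and mm10 appear in the submitters' processing notes. The strand used in counting is not given in the sources used here. Members, lists and tests were chosen with earlier results of these data known.

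Cells with under 500 UMIs, under 250 genes or over 10% mitochondrial UMIs were dropped, and the 8% with the highest Scrublet score (scanpy 1.11.5) were removed in each library. Most classes came from marker gates: at least 3 detected markers with 5 times the mean UMI share of the list (2 times for monocytes), and a macrophage-marker share under 0.3 times the reference. Macrophages were asked for 3 markers, a share of at least 0.3 times the reference and no other passed gate. Rhox5-positive cells were asked for Rhox5 with keratin or Epcam RNA, without a share of these. Their macrophage-marker share was under the same limit, and no gate but that of fibroblasts was passed. The gate thresholds were set after marker counts were seen. Counts were summed per library and class of at least 20 cells. Sums were tested with edgeR 4.0.16 (R 4.3.3) by quasi-likelihood, with TMM scaling, its expression filter and Benjamini-Hochberg adjustment over all genes at 0.05. Class comparisons had the library as a block, and JAG2KO comparisons did not, because the labels do not pair the libraries. DESeq2 1.42.0 and the alternatives listed at the end were run beside it, and some of the fits were tested on simulated data. In each of these by edgeR, over all genes, false calls were a larger share than the 0.05 asked, also for JAG2KO in Rhox5-positive cells. The values are not reported here. Named were the cutting subunits and Psma8 and Psmb11 in any case, every member called with JAG2KO or otherwise the 3 smallest p in monocytes and macrophages, and in other comparisons the 4 largest called differences each way. Of the pathway lists, genes were named from the 4 with the smallest adjusted p in each comparison. Further members named beside these (such as Psma4, Psma5 and Psmc5 in Rhox5-positive cells) were chosen after their values were seen. Some genes of the pathway lists are not reported here.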

Additional observations from a re-analysis of the deposited data

Results flagged for a closer look

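The effect of JAG2KO on Psma6 differed between classes by edgeR's interaction test. It differed by -0.48 ± 0.11 (log2, SE, adjusted p = 0.0478) between Rhox5-positive cells and monocytes and macrophages, and Psma6 was lower in both JAG2KO libraries of the former. Psma6 was the only member called by this test, where 2.17% of all genes were called, so the count was near the share of the genes at large. The interaction was not run under the alternatives. The call within Rhox5-positive cells was lost with doublets kept, with a stricter gate and with thinning. It was also lost with any Scramble library left out and with the replicate number as a block.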

How the results depend on the processing

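Of 574 values of member counts under the alternatives, 522 lay within 1.5 times the main count and 52 did not. A count that stayed at 0 was placed among the 522, as all JAG2KO counts outside Rhox5-positive cells were. With cells thinned to 1000 UMIs, higher members numbered 1 in cDC1, 2 in cDC2, 0 in migratory dendritic cells, 3 in Rhox5-positive cells, 1 in cycling and 3 in Cxcl9-positive cells, and lower members 4 in monocytes and 5 in mast cells. Thinned shares were 0.564% in cDC1, 0.386% in migratory dendritic cells, 0.394% in T cells and 0.559% in Rhox5-positive cells. With class totals in place of TMM, higher members numbered 6 in cDC2, 2 in migratory dendritic cells, 2 in T cells, 1 in NK cells, 17 in Rhox5-positive and 23 in cycling cells, and lower ones 5 in cDC2, 18 in migratory dendritic cells, 15 in NK cells, 10 in mast cells, 5 in Rhox5-positive cells and 14 in monocytes. A stricter gate gave 5 higher in cDC2, 1 in T, 1 in NK and 6 in Rhox5-positive cells, and 14 lower in NK cells and 5 in monocytes. DESeq2 gave 1 lower in cDC2, 1 higher in T cells, and 15 lower in NK cells, 0 in mast cells and 4 in monocytes. Without the library block there were 1 lower in cDC2, 1 higher in T and in NK cells, 5 lower in monocytes, 2 higher and 2 lower in cycling and 0 higher in Cxcl9-positive cells. Leaving out 1 library gave 5 to 7 lower in monocytes (5 without Scramble 1 or JAG2KO 1) and 0 to 1 higher in NK cells (1 without Scramble 2), and otherwise kept these counts within 1.5 times.

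The JAG2KO call of Psma6 in Rhox5-positive cells became 0 with doublets kept, a stricter gate, thinning or the omission of any library (0 to 0), and without a filter on low counts 1 member was higher (0 to 1 on leaving out a library). With the replicate number as a block it was also 0, and the block changed no other member count. The numbers do not pair the samples in the labels, and their deviations correlated at -0.0146 (number 1) and 0.23 (number 2) over 11039 genes. Libraries of unlike numbers correlated at values from -0.23 to 0.152. The deviations of the 2 JAG2KO libraries from their mean mirror each other, so these values do not decide the pairing. Single genes that changed sign were Psmb9 in neutrophils with class totals (-0.45) and, thinned, Psmb5 in cDC1 (-0.13), Psma7 in migratory dendritic cells (-0.066), Psmb5 in Rhox5-positive cells (-0.0087) and Psmd5 in cycling cells (-0.089). The causes were not tested. Small classes and 2 JAG2KO libraries limit what could be detected.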
